A study of Mus musculus with 6 samples.

Results

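The genes described here are 10 genes of transforming growth factor beta (TGF-beta) signalling, followed in CD4+CD25+ regulatory T cells (Treg) that lack Mbd2, a protein that binds methylated DNA. They are the ligand gene Tgfb1, the receptor genes Tgfbr1 and Tgfbr2, the Smad genes Smad2, Smad3, Smad4 and Smad7, the corepressor genes Skil and Ski, and Ldlrad4. The 10 genes were chosen by name and matched to the array through the platform's annotation, out of 12393 genes with a probe set of a single gene symbol. They had 20 probe sets, of which 12, from 9 of the genes, passed the filter on dim probe sets (a mean above 5.18 over the 6 arrays) and were tested. Smad3 had no such probe set.

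Cells of 2 genotypes were compared, both on the Balb/c background and both magnetically separated for CD4 and CD25: 3 samples from mice with the genotype MBD2–/– (called Mbd2 knockout) and 3 from wild-type mice (WT). The study's title joins Mbd2 to Foxp3 demethylation and to Treg function. RNA levels were measured on 1 array per sample, without any treatment named in the labels, and the submitters called the samples independent. The labels give neither age nor sex, nor how the allele was made.

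TGF-beta is a secreted cytokine that is made as a latent complex and freed outside the cell. The active ligand brings together a type II receptor, which binds it, and a type I receptor, whose kinase then phosphorylates the receptor-regulated Smad proteins Smad2 and Smad3. These join Smad4, enter the nucleus and regulate target genes, while Smad7, Ski, SnoN (the product of Skil) and other proteins restrain the signal. In T cells the pathway is known for inducing Foxp3, the transcription factor that defines Treg, and for holding back effector programmes.

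Every value is a robust multi-array average (RMA) expression value on the log2 scale, on which equal steps are equal ratios, and every difference is knockout minus WT on that scale. WT replicate 3 was unlike the rest. Over all probe sets, r between this array and each of the other 5 was 0.749 to 0.767, while the pairs without it had r of 0.956 to 0.997. It held the lowest of the 6 values for 10 of the 12 tested probe sets of the TGF-beta genes and the highest for 7 of the 8 dim ones. Each comparison is therefore given with all 6 arrays and with 5 arrays, without WT replicate 3. It was fitted with limma, and a probe set passed the threshold, or was called, at a Benjamini-Hochberg adjusted p under 0.05 over the 13575 probe sets tested. WT replicates 1 and 2, on which the WT side of the 5-array fit rests, were the closest pair, with r = 0.997. The targeted gene was lower in every knockout array on both of its probe sets, and the brighter one read 5.93, 5.71 and 6.14 in knockout replicates 1 to 3, against 8.80, 8.66 and 6.93 in WT replicates 1 to 3. The difference on the brighter Mbd2 probe set was -2.21 with 6 arrays (adjusted p = 0.548) and -2.80 with 5 (adjusted p = 0.0019). The labels do not say which stretch of Mbd2 was removed, so it is unknown whether these probes read it.

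**Figure D1:**
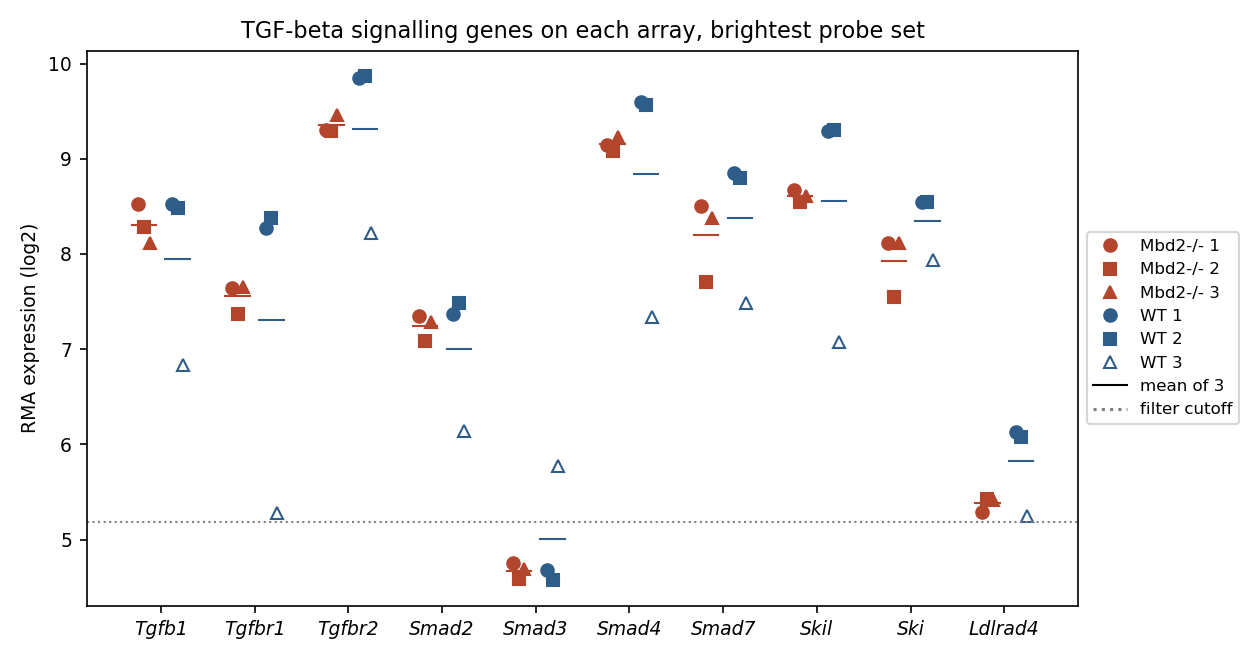
RMA expression (log2) of the 10 TGF-beta signalling genes on each of the 6 arrays, brightest probe set per gene; red points are Mbd2 knockout, blue points WT, the open triangle WT replicate 3, short lines the mean of 3 arrays and the dotted line the cutoff of 5.18. For Skil the knockout arrays sit at 8.55 to 8.67, below WT replicates 1 and 2 at 9.29 and 9.30 and above WT replicate 3 at 7.08.

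Among the ligand and receptor genes, the knockout arrays lay below WT replicates 1 and 2 for both receptors, while the ligand overlapped. With 5 arrays, 31.8% of all tested probe sets had every knockout array lower. Tgfb1, which encodes the ligand most abundant in the immune system, read 8.52, 8.28 and 8.12 in the knockout arrays, against 8.53, 8.48 and 6.83 in the WT arrays. Its difference was 0.36 with 6 arrays (SE 0.49, adjusted p = 0.829) and -0.20 with 5 (SE 0.14, adjusted p = 0.439), where the 95% interval ran from -0.54 to 0.14. The highest Tgfb1 value in knockout lay between WT replicates 1 and 2, and all 3 lay above WT replicate 3.

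Tgfbr1, the type I receptor kinase, read 7.64, 7.37 and 7.65 in the knockout arrays, against 8.27, 8.38 and 5.28 in the WT arrays. WT replicate 3 alone was low, so that the groups overlapped with 6 arrays and did not with 5. The difference was 0.24 (SE 0.83, adjusted p = 0.921) with 6 arrays. With 5 arrays it was -0.77 (SE 0.12), a 1.71-fold lower level that missed the threshold (adjusted p = 0.0518). It passed under 5 of the alternatives that kept these 5 arrays (adjusted p from 0.000789 to 0.0495). The alternatives under which it did not pass included the mean of probe sets and the scaling to CD4 T cell markers described below (-0.22, adjusted p = 0.53). These alternatives use the same arrays and are not separate checks. The other 2 probe sets of Tgfbr1 were dim, with means of 4.54 and 4.37 over the arrays, and their groups overlapped in both fits.

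Tgfbr2, the ligand-binding type II receptor, had the highest level of all the members' probe sets on this scale, although levels of different probe sets cannot be ranked as amounts of RNA. It read 9.30, 9.29 and 9.46 in the knockout arrays, against 9.85, 9.87 and 8.22 in the WT arrays. The difference was 0.04 (adjusted p = 0.982) with 6 arrays and -0.51 (SE 0.10, adjusted p = 0.0709) with 5. A dimmer Tgfbr2 probe set read 5.84, 6.01 and 5.90 in the knockout arrays and 6.16, 6.22 and 6.63 in the WT arrays. It was the 1 tested probe set of the 12 whose groups did not overlap with all 6 arrays, where 5.72% of all tested probe sets had every knockout array lower. WT replicate 3 was the highest array on this probe set, which widens the 6-array difference. That difference was -0.41 with 6 arrays (adjusted p = 0.829) and -0.27 with 5 (adjusted p = 0.196), and neither passed the threshold.

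The promoters of the ligand and receptor genes are shown because Mbd2 binds methylated CpG. Neither receptor was called in either fit, and a part of promoter methylation in their RNA levels was not tested. Each is the stretch of 250 bases before the annotated gene start in RefSeq, build GRCm38.p6, read 5′ to 3′ on the gene's strand, with every CpG in capitals. The windows are chr7:25686752-25687001 on the + strand for Tgfb1, chr4:47352972-47353221 on the + strand for Tgfbr1 and chr9:116175364-116175613 on the - strand for Tgfbr2.
Tgfb1: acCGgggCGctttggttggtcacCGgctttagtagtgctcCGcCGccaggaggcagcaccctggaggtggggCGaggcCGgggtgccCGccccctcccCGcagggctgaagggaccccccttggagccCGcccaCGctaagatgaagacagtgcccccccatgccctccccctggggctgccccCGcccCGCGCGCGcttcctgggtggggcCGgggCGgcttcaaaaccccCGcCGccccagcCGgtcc
Tgfbr1: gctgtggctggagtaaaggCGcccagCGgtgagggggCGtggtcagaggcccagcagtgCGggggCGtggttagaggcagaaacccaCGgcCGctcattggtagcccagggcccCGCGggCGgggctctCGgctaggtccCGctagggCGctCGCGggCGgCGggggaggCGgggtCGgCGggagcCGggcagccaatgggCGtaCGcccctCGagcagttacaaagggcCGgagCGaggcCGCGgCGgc
Tgfbr2: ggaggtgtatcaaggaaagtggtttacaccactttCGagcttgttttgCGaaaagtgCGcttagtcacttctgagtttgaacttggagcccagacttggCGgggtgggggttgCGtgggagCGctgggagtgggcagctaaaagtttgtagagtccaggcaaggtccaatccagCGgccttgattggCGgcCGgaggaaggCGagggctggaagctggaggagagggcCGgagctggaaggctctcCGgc
Tgfb1 has 21 CpGs in this window, Tgfbr1 29 and Tgfbr2 12, against a median of 6 over 32851 promoter windows of the same length. At least as many as in Tgfbr1 were found in 6.78% of all windows, and at least as many as in Tgfbr2 in 33.5%. Among the other members matched in the promoter table, Smad3 had 22 and Ski 53, a number reached by 0.0365% of windows. The motif CAGAC, a sequence that Smad proteins bind, was searched on both strands and found once, in the Tgfbr2 window, while 42.2% of all windows hold it. No methylation was measured on these arrays, and a match is a description of the letters only.

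None of the Smad genes passed the threshold in either fit, and with 5 arrays all 3 that could be tested were lower in knockout without overlap, where 31.8% of all tested probe sets were. Smad2, a receptor-regulated Smad, read 7.35, 7.09 and 7.28 in the knockout arrays, against 7.37, 7.49 and 6.14 in the WT arrays. The Smad2 difference was 0.24 (adjusted p = 0.846) with 6 arrays and -0.19 (adjusted p = 0.383) with 5, with a 95% interval from -0.47 to 0.09. With 5 arrays the highest knockout value lay just under that of WT replicate 1. Smad3, the other receptor-regulated Smad, lay under the cutoff on both of its probe sets: the brighter gave 4.75, 4.58 and 4.69 in the knockout arrays, against 4.68, 4.57 and 5.77 in the WT arrays. A dim probe set does not show whether Smad3 RNA was present, and the files hold no detection calls.

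Smad4, the partner shared by all receptor-regulated Smads, had 3 tested probe sets. The brightest read 9.15, 9.08 and 9.23 in the knockout arrays, against 9.60, 9.57 and 7.34 in the WT arrays. With 5 arrays the differences of the 3 probe sets were -0.43 (adjusted p = 0.0874), -0.44 (adjusted p = 0.122) and -0.24 (adjusted p = 0.339), each with the knockout arrays below both WT arrays. With 6 arrays all 3 were positive, at 0.32, 0.15 and 0.50, with overlapping groups.

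Smad7, the inhibitory Smad that blocks the type I receptor and is itself induced by the pathway, read 8.50, 7.71 and 8.38 in the knockout arrays, against 8.85, 8.80 and 7.49 in the WT arrays. Knockout replicate 2 was the lowest knockout array. Among the brightest probe sets of the 9 tested genes, Smad7 had the largest spread over the knockout arrays, with an SD of 0.42 (n = 3), followed by Ski with 0.33. The difference was -0.18 (adjusted p = 0.885) with 6 arrays and -0.63 (SE 0.24, adjusted p = 0.212) with 5.

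Of the other genes that restrain the signal, Skil and Ldlrad4 passed the threshold with 5 arrays and Ski did not. Skil, which encodes SnoN, a corepressor that binds Smad complexes and is a feedback target of the pathway, read 8.67, 8.55 and 8.61 in the knockout arrays, against 9.29, 9.30 and 7.08 in the WT arrays. It fell 1.61-fold with 5 arrays (difference -0.69, SE 0.09, adjusted p = 0.0353). With 6 arrays the Skil difference was 0.05 (SE 0.62, adjusted p = 0.981), since WT replicate 3 lay below every knockout array. A second Skil probe set was too dim to be tested. It read 4.74, 4.88 and 4.91 in the knockout arrays, against 4.99, 4.97 and 5.50 in the WT arrays. The groups did not overlap with or without WT replicate 3, but the difference with 5 arrays was only -0.13. Of all tested probe sets, 5.72% with 6 arrays and 31.8% with 5 had every knockout array lower. WT replicate 3 was the highest array on 7 of the 8 dim probe sets of the members, so the 6-array pattern adds little here.

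Ldlrad4 encodes a membrane protein that binds receptor-regulated Smads and restrains TGF-beta signalling. Its brightest probe set read 5.29, 5.43 and 5.42 in the knockout arrays, against 6.13, 6.08 and 5.25 in the WT arrays. Ldlrad4 fell 1.66-fold with 5 arrays (difference -0.73, SE 0.09, adjusted p = 0.034) and was at -0.44 (SE 0.30, adjusted p = 0.829) with 6. These levels are near the cutoff of 5.18, and the other Ldlrad4 probe sets lay under it, at means of 4.73 and 4.20. The first of these had every knockout array below every WT array, as 5.72% of all tested probe sets did with 6 arrays and 31.8% with 5. Its WT replicate 3 was high, at 5.85, and its difference with 5 arrays was only -0.12.

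Ski, the paralog of Skil with the same corepressor role, read 8.11, 7.55 and 8.12 in the knockout arrays, against 8.55, 8.55 and 7.94 in the WT arrays. It was the 1 tested gene whose lowest array was not WT replicate 3 but knockout replicate 2. The difference was -0.42 (adjusted p = 0.829) with 6 arrays and -0.62 (SE 0.20, adjusted p = 0.156) with 5.

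Over the 9 tested genes, the comparison with 5 arrays gave a difference below 0 for each of them, where 60.7% of all 13575 tested probe sets lay below 0. The groups did not overlap for 8 of the 9, all but Tgfb1, against the 31.8% of all tested probe sets with every knockout array below both WT arrays. Of the 9 genes, 2 passed the threshold, both lower, where 0.729% of all tested probe sets were called lower. An unadjusted p under 0.05 was reached by 7 of the 9, where 14.6% of all tested probe sets reached it in that direction. The median difference of the 9 was -0.62, against -0.06 over all tested probe sets, and the range ran from -0.77 for Tgfbr1 to -0.19 for Smad2. The shares are over probe sets, while each gene was counted by its brightest probe set. Counted over the 12 tested probe sets of the members, all 12 were lower, 11 of them without overlap. Of the 12, 9 reached an unadjusted p under 0.05 and 2 were called, with a median of -0.48. The 9 genes were chosen with earlier results of these data known, so these counts describe them only.

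With all 6 arrays, no member was called, where 0.103% of all tested probe sets were called, and 0 of the 9 reached an unadjusted p under 0.05, where 4.08% of all did. The members were then at -0.44 to 0.36, with 3 lower (36.8% of all tested probe sets were lower), 6 higher and a median of 0.05, against a median of 0.15 over all tested probe sets. The SE of Tgfbr1 was 0.83 with 6 arrays and 0.12 with 5, and that of Skil 0.62 and 0.09. The calls of Skil and Ldlrad4 in the 5-array fit were also lost when any 1 array other than knockout replicate 2 was left out, with adjusted p from 0.112 to 0.384. Without knockout replicate 2, so with 2 arrays a side, 7 of the 9 members were called lower, all but Tgfb1 and Smad2, where 10.3% of all tested probe sets were called lower, and the median of the 9 was -0.43. Smad7 was then at -0.38 and Smad2 at -0.11, so that knockout replicate 2 alone moved both by over 1.5 times.

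**Figure D2:**
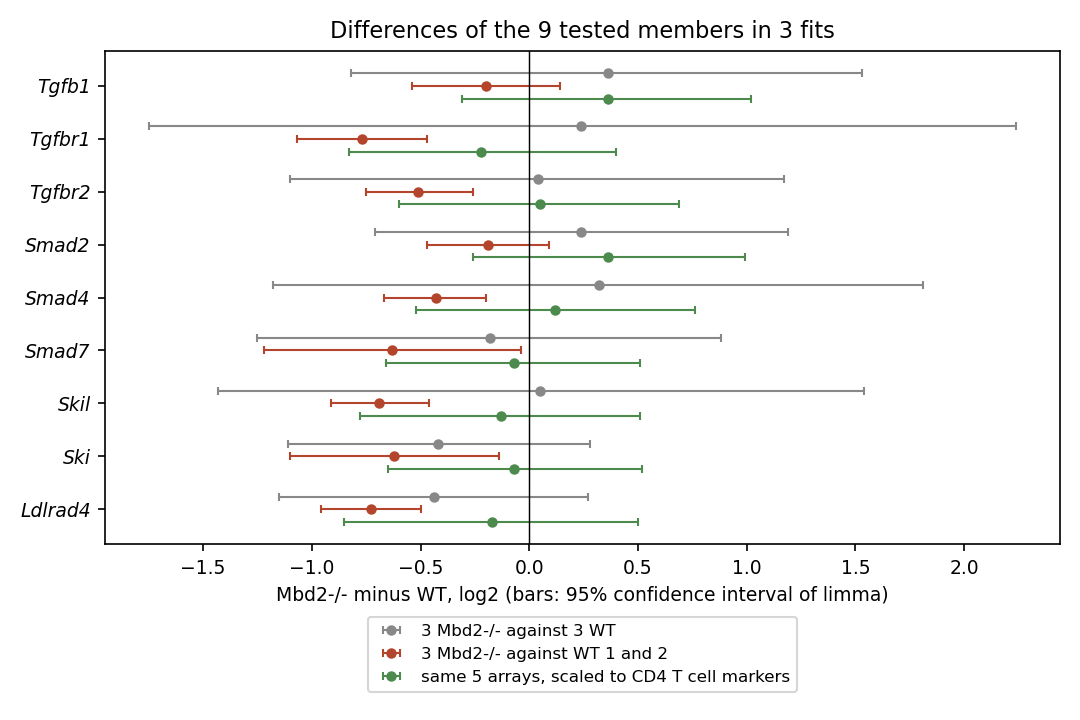
Difference knockout minus WT (log2) of the 9 tested genes with its 95% confidence interval from limma, for all 6 arrays (grey), for 5 arrays without WT replicate 3 (red) and for the same 5 arrays scaled to the CD4 T cell markers (green). In the 5-array fit all 9 points lie left of 0, from -0.77 to -0.19, while after scaling the points lie between -0.22 and 0.36 and every interval crosses 0.

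Levels of cell type markers differed between the same arrays. In bulk samples, fewer cells of a type and less RNA per cell cannot be told apart. The 8 tested genes of CD4 T cells, such as Cd3e and Cd4, averaged 9.34 to 10.05 on the knockout arrays and 9.28 to 10.39 on the WT arrays. With 5 arrays all 8 were lower in knockout without overlap, as were 31.8% of all tested probe sets, with a median difference of -0.52, and 0 were called. The 11 tested Treg markers averaged 7.81 to 8.74 on the knockout arrays, against 9.29, 9.25 and 7.91 on the WT arrays, and with 5 arrays 10 of 11 were lower without overlap, with a median of -0.95. Of these, Nrp1, Icos and Itgae were called, 3 of 11, where 0.729% of all tested probe sets were called lower. Cd3e, Cd4, Foxp3 and Il2ra, which encodes CD25, were above the cutoff on every array. Il2ra was lowest on knockout replicate 2, at 6.49, against 8.04, 7.91 and 7.17 in the WT arrays. Its difference with 5 arrays was -0.73 (adjusted p = 0.31). The Treg marker Ikzf2 was too dim to be tested. It lay under the cutoff on knockout replicates 2 and 3, at 4.59 and 5.17, and on WT replicate 3, at 4.58. Ikzf2 lay above the cutoff on the remaining arrays.

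Markers of other blood cells were higher in knockout with 5 arrays. All 14 granulocyte markers were higher without overlap, where 15.6% of all tested probe sets were, with array means of 9.03 to 9.39 in knockout and 5.46 and 6.14 on WT replicates 1 and 2, the WT arrays of this fit. All 12 markers of monocytes, macrophages and dendritic cells and all 8 B cell markers were higher without overlap as well, at 7.33 to 8.57 in knockout against 5.45 and 5.74 in WT, and at 7.49 to 7.96 against 6.01 and 6.74. No marker reads 0, since these values have no true zero. The 6 plasma cell markers averaged 8.61 to 10.16 in knockout, against 7.87 and 8.27 in WT, and the 10 markers of CD8 T cells and NK cells 6.86 to 7.86 against 6.63 and 6.77. Markers of erythroid cells and platelets, which are rich in TGF-beta1, averaged 5.30 to 5.50 in knockout and 5.22 and 5.10 in WT.

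**Figure D3:**
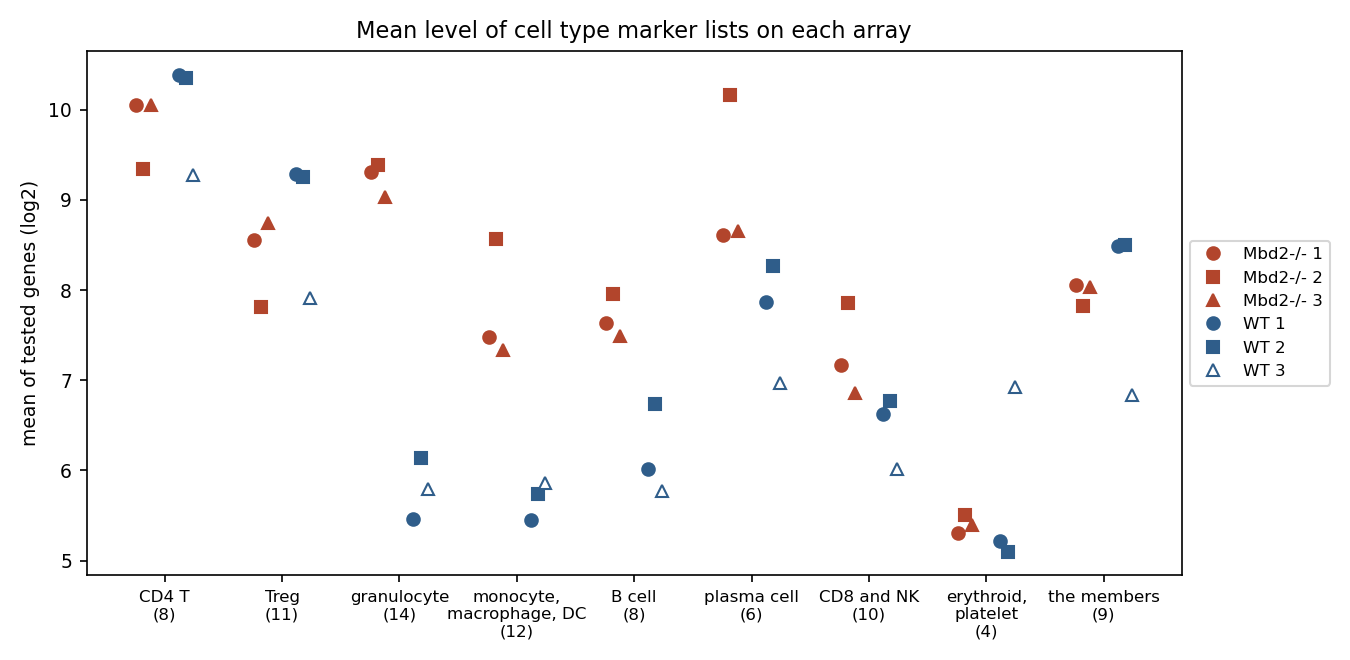
Mean log2 expression of the tested genes of each cell type marker list, and of the 9 tested TGF-beta genes, on each array; red points are Mbd2 knockout, blue points WT, the open triangle WT replicate 3, and the number of genes stands in brackets. Knockout replicate 2 has the lowest mean of the Treg list, at 7.81, and the highest of the plasma cell list, at 10.16.

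When every array was set relative to its mean over the 8 CD4 T cell markers, an alternative added after the data were seen, each difference of the 5-array fit shifted up by 0.55. The median of all tested probe sets was then 0.49. None of the 9 members was called (lowest adjusted p = 0.334), their median was -0.07, and 5 were lower and 4 higher. Of all tested probe sets, 255 were called under this scaling, 7 lower and 248 higher. With so few called lower, the absence of a lower call among 9 genes says little about the members. Skil was at -0.13, Ldlrad4 at -0.17 and Tgfbr1 at -0.22, while Tgfb1 and Smad2 were each at 0.36. The size of the shift depends in part on knockout replicate 2, whose mean over these markers was 9.34. Each of the other knockout arrays had 10.05, against 10.39 and 10.35 on WT replicates 1 and 2. Without that array, which was also tried after the data were seen, the shift was 0.32 and 3 members were called lower, where 2.22% of all tested probe sets were called lower. These were Ldlrad4 at -0.43 (adjusted p = 0.00734), Skil at -0.34 (adjusted p = 0.0113) and Tgfbr1 at -0.36 (adjusted p = 0.013), while the median of the 9 was -0.11. The part of the other cell types' markers in the members' differences was not tested.

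The wider pathway was described by 9 lists by role, 104 genes in all without the members. Of these 94 were on the array under a single symbol and 67 were tested. With 6 arrays, 0 of the 67 were called. In the 5-array fit 3 were called, 2 higher and 1 lower, where 1.4% of all tested probe sets were called in either direction, and the 67 genes had a median of -0.12. Of the 67, 43 were lower and 24 higher in that fit, where 60.7% of all tested probe sets lay below 0. The same share stands beside the counts of lower genes in each list below.

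Of the genes for other ligands and for latency and activation, 5 were tested. Mmp9, a secreted protease that can release latent TGF-beta and is also abundant in neutrophils, read 7.03, 8.03 and 7.35 in the knockout arrays, against 5.27, 5.50 and 6.54 in the WT arrays. It rose by 2.08 with 5 arrays (adjusted p = 0.038) and was at 1.70 with 6 (adjusted p = 0.615), with no overlap in either. With 6 arrays 10.4% of all tested probe sets had every knockout array higher. The 14 granulocyte markers were higher on the same arrays, with a median difference of 3.81 with 5 arrays, and their part in the Mmp9 difference was not tested. Itgav, the alpha chain of integrins that activate latent TGF-beta, was at -0.41 (adjusted p = 0.13) and Furin, the protease that cleaves the TGF-beta precursor, at 0.45 (adjusted p = 0.389). Furin was at 0.16 without knockout replicate 2, and Itgav at -0.37, which passed the threshold there (adjusted p = 0.0454). In that fit, 10.3% of all tested probe sets were called lower. Lrrc32 and Itgb8, which act in latent TGF-beta display and activation on Treg, had no probe set of a single symbol here.

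The other receptor genes and Smads included no call in either fit. Of 4 tested receptor genes 3 were lower with 5 arrays, among them Acvr1b, a type I receptor for activin, which read 7.70, 7.17 and 7.68 in the knockout arrays and 8.02, 7.99 and 7.51 in the WT arrays (difference -0.49, adjusted p = 0.203). Without knockout replicate 2, Acvr1b was at -0.31 and was called (adjusted p = 0.0298), where 10.3% of all tested probe sets were called lower. Tgfbr3, a coreceptor, lay under the cutoff, and so did the inhibitory Smad gene Smad6. Smad1 and Smad5, which carry the signal of bone morphogenetic proteins, were at 0.01 and -0.03 with 5 arrays. Smad1 read 7.48, 7.42 and 7.39 in the knockout arrays, against 7.45, 7.40 and 5.13 in the WT arrays, so WT replicate 3 alone stood apart. The 95% interval of the Smad1 difference in the 5-array fit ran from -0.21 to 0.23.

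Of the 14 tested inhibitors of the pathway other than the members, 11 were lower with 5 arrays, with a median of -0.16 and no call. Pmepa1, a target of the pathway that restrains it as its relative Ldlrad4 does, read 7.24, 7.12 and 7.37 in the knockout arrays, against 8.03, 7.87 and 6.43 in the WT arrays (difference -0.71, SE 0.12, adjusted p = 0.0529). Without knockout replicate 2 it was at -0.65 and was called (adjusted p = 0.0064), where 10.3% of all tested probe sets were called lower. The Smad corepressor gene Tgif1 was at -0.52 (adjusted p = 0.17) and Tob1, an antiproliferative gene of resting T cells, at -0.12 (adjusted p = 0.593). Positive cofactors had 10 of 12 tested genes lower, with a median of -0.19, and the Smad-independent arm 6 of 8, with Map3k7, which encodes the kinase TAK1, at -0.32 (adjusted p = 0.368), or -0.14 without knockout replicate 2. Neither list held a call, and 60.7% of all tested probe sets lay below 0 with 5 arrays.

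**Figure D4:**
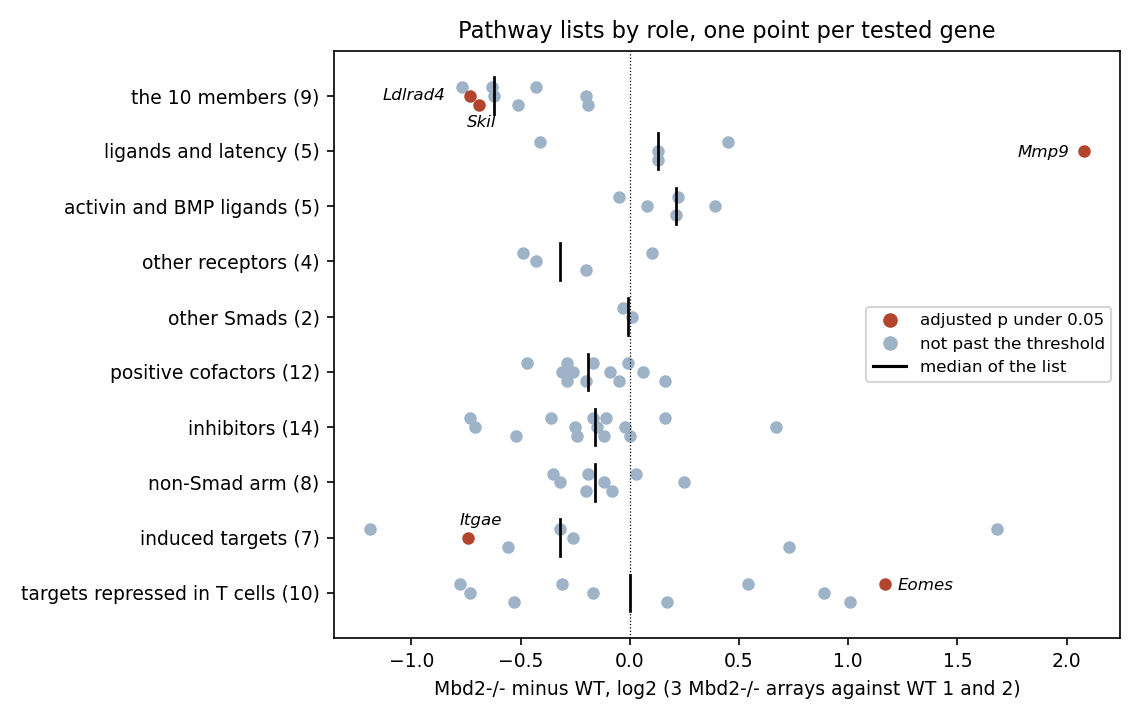
Difference knockout minus WT (log2) in the 5-array fit for the 9 tested members and for each tested gene of the 9 pathway lists, with the median of each list as a black line and the number of tested genes in brackets. Red points passed the threshold: Ldlrad4, Skil and Itgae are lower, Mmp9 and Eomes higher.

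Of the 7 tested genes that TGF-beta is known to induce, 5 were lower and 2 higher with 5 arrays, with a median of -0.32. Itgae was the 1 called, and both Itgae and Foxp3 also stand in the list of Treg markers. Itgae, the alpha chain of the integrin CD103 that TGF-beta induces in T cells, read 7.17, 7.15 and 7.09 in the knockout arrays, against 7.83, 7.92 and 5.89 in the WT arrays. It fell by 0.74 with 5 arrays (SE 0.09, adjusted p = 0.0321) and was at -0.07 with 6 (adjusted p = 0.968). After the scaling to CD4 T cell markers Itgae was at -0.18 (adjusted p = 0.623). Foxp3 read 7.98, 6.62 and 8.17 in the knockout arrays, against 8.83, 8.74 and 6.93 in the WT arrays, and was not called with 5 arrays (-1.19, adjusted p = 0.212) or with 6 (-0.58, adjusted p = 0.829). The Foxp3 values depended on knockout replicate 2. Without it, Foxp3 was at -0.71 in the 5-array fit and was called (adjusted p = 0.00482), where 10.3% of all tested probe sets were called lower. In the 6-array fit without it, Foxp3 was at -0.09 (adjusted p = 0.97). With array weights it was called at -0.80 with 5 arrays (adjusted p = 0.00816) and -0.76 with 6 (adjusted p = 0.0344). The weights were lowest for knockout replicate 2 with 5 arrays (0.13) and for WT replicate 3 with 6 (0.029). These calls are thus not separate from leaving those arrays out. The weighted fit with 6 arrays called 2323 of 13575 probe sets. Klf10, an immediate target of TGF-beta, was at -0.32 (adjusted p = 0.326) with 5 arrays. The 2 genes that were higher, named after their values were seen, were Tgfbi, which encodes an extracellular matrix protein, and Cdkn1a, which encodes the cell cycle inhibitor p21. Tgfbi read 6.50, 8.26 and 6.50 in the knockout arrays, against 5.44 and 5.39 on WT replicates 1 and 2. WT replicate 3 lay between these and the knockout arrays, so there was no overlap in either fit. Its difference was 1.68 with 5 arrays (adjusted p = 0.167) and 1.48 with 6 (adjusted p = 0.829), and knockout replicate 2 was far above the other arrays. Cdkn1a read 7.02, 7.31 and 6.47 in the knockout arrays, against 6.16, 6.24 and 8.31 in the WT arrays, at 0.73 with 5 arrays without overlap (adjusted p = 0.173) and at 0.03 with 6.

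Of the 10 genes that TGF-beta is known to repress in T cells, 5 were higher and 5 lower with 5 arrays, with a median of 0.00. Eomes, a T-box transcription factor of CD8 T cells and NK cells, was the 1 called. Eomes also stands in the marker list of CD8 T and NK cells, all 10 of which were higher with 5 arrays, where 60.7% of all tested probe sets lay below 0. Of the 10, 3 did not overlap, Eomes among them, where 15.6% of all tested probe sets were higher without overlap. No other gene of that list was called. It read 7.91, 8.01 and 7.74 in the knockout arrays, against 6.78, 6.65 and 6.10 in the WT arrays, and rose by 1.17 with 5 arrays (SE 0.12, adjusted p = 0.0168). With 6 arrays its groups did not overlap either, at 1.38 (adjusted p = 0.325). Ifng, which encodes the effector cytokine interferon gamma, was spread over the knockout arrays, at 6.18, 8.22 and 5.84, against 7.47, 7.59 and 5.63 in the WT arrays, and was not called with 5 arrays (-0.78, adjusted p = 0.536). Without knockout replicate 2, Ifng was at -1.52 and was called (adjusted p = 0.0009), where 10.3% of all tested probe sets were called lower. The 11 pathway genes named whatever their values and not called with 5 arrays, Foxp3 aside, ran from -0.33 for Tgif1 to 0.88 for Furin with 6 arrays, with no call.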

How the data were processed

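RNA from 3 Mbd2 knockout and 3 WT samples was measured on 1 single-colour expression array each. The deposited values are RMA values on the log2 scale, per the submitters' processing notes. Background correction and normalization were thus done by the authors, and the software and its version are not named there. RMA gives every array nearly the same distribution, so a change common to most genes cannot be seen, yet WT replicate 3 kept a narrower one (SD 1.36, against 1.78 to 1.83 on the others).

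Of 22690 probe sets, 64 were controls and 20380 had 1 gene symbol in the platform annotation, 691 several and 1555 none listed. For 20351 probe sets the gene ID was matched in RefSeq and the current symbol there was used, whether or not it differed. The lowest 40% by mean over the 6 arrays were left out, since knockout and WT arrays count alike in that mean, which left 13575. A gene was represented by its tested probe set with the highest mean. Knockout minus WT was fitted with limma 3.58.1 (lmFit and eBayes) in R 4.3.3, with Benjamini-Hochberg adjustment over all tested probe sets and a threshold of 0.05, and the procedure was tested on simulated data. In the simulated data, 2-fold changes were recovered for 2% of changed probe sets with 6 arrays and for 60% with 5. A gene that was not called may therefore still differ, above all with 6 arrays. Array data give no read depth, and the number of arrays limits the precision. Nothing in the labels says that the samples are separate animals rather than pools, so p-values measure the spread between these samples.

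The members and all gene lists were chosen with earlier results of these data known. The text names all members, Mbd2, Foxp3, every pathway gene called in either fit and pathway genes named beforehand whatever their values. Alternatives covered the filter, the variance model, array weights, normalization, the choice of probe set, a replicate block, each array left out in turn and, added after the data were seen, scaling to CD4 T cell markers, with and without knockout replicate 2. Promoter windows came from RefSeq, build GRCm38.p6, for 5 of the 10 members.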

Additional observations from a re-analysis of the deposited data

How the results depend on the processing

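The members' results turn on which arrays enter and how they are weighted. With 6 arrays 14 probe sets were called, against 8 with no filter, 2323 with array quality weights, 2537 without WT replicate 3 and knockout replicate 2 together, and 0 to 190 with 1 array left out. Members called, 0 with 6 arrays, were 6 with weights, 7 without both arrays and 0 to 2 with 1 array left out. Their median of 0.05 became -0.45 with weights, -0.20 with quantile normalization again, -0.12 with the mean of all probe sets of a gene, -0.43 without both arrays, and -0.62 to 0.43 with 1 array left out. With 5 arrays 190 probe sets were called, against 779 at an adjusted p under 0.1 and 3783 with weights. The replicate block gave 561, and leaving 1 array out gave 18 to 2537. The scaling to CD4 T cell markers gave 255, of which 7 were lower. Members called, 2 with 5 arrays, were 5 at an adjusted p under 0.1, 1 with the lowest 60% left out (which removes Ldlrad4), 7 with weights, and 0 with the mean of probe sets or the scaling to CD4 T cell markers, and 0 to 7 with 1 array left out. The median of -0.62 became -0.45 with weights, -0.30 with the mean of probe sets and -0.07 after the scaling, and ran from -0.69 to -0.43 with 1 array left out. Where 1 WT array remained, its spread was taken to equal that of the knockout arrays. Replicate numbers did not pair the samples (correlations of deviations from the group means of 0.15, -0.09 and -0.14 for numbers 1 to 3). The replicate block with 6 arrays gave 10 probe sets and 0 members called, with a median of 0.05. With 5 arrays it also called 2 members, now Tgfbr1 (-0.82, adjusted p = 0.0461) and Ldlrad4 (-0.75, adjusted p = 0.0477), with a members' median of -0.69, and called Foxp3 (-1.48, adjusted p = 0.039) and Pmepa1 (-0.77, adjusted p = 0.0405), while Skil (adjusted p = 0.058) and Itgae (adjusted p = 0.0536) missed the threshold. Of Foxp3 and the 11 pathway genes named whatever their values and not called with 5 arrays, 5 of 12 were called without knockout replicate 2, all of them lower. In that fit 10.3% of all tested probe sets were called lower, and 2537 were called in either direction. Calls of Eomes and Mmp9 were lost without any 1 of the arrays other than knockout replicate 2, with adjusted p from 0.0568 to 0.249 for Eomes and 0.0709 to 0.355 for Mmp9. Signs turned as follows in the 6-array fit. With weights, Smad2 was at -0.15, Tgfb1 at -0.08, Tgfbr1 at -0.72, the Smad4 probe sets at -0.32, -0.23 and -0.40, Tgfbr2 at -0.51 and Skil at -0.64. With quantile normalization again, Smad4 was at -0.14 and -0.00 on 2 probe sets, Tgfbr2 at -0.34 and Skil at -0.20. With the mean of probe sets, Tgfbr1 was at -0.00, Tgfbr2 at -0.12 and Skil at -0.13. After the scaling, Smad7 was at 0.01 and Itgae at 0.12. Without both arrays, Smad2 was at -0.11, Tgfb1 at -0.18, Tgfbr1 at -0.68, Smad4 at -0.36, -0.18 and -0.40, Tgfbr2 at -0.48 and Skil at -0.66. With 1 array left out, Smad2 ran from -0.19 to 0.48, Tgfb1 from -0.20 to 0.65, Tgfbr1 from -0.77 to 0.78, Smad4 from -0.44 to 0.48, -0.24 to 0.87 and -0.43 to 0.70, Smad7 from -0.63 to 0.06, Tgfbr2 from -0.51 to 0.32, Skil from -0.69 to 0.43 and Itgae from -0.74 to 0.28. In the 5-array fit, Smad1 was at -0.01 with median centring, at -0.06 with the mean of probe sets and between -0.02 and 0.03 with 1 array left out. The scaling turned Smad2 and Tgfb1 (0.36 each), Smad4 (0.11, 0.31 and 0.12), Tgfbr2 (0.28 and 0.05), Itgav (0.15), Acvr1b (0.07), Smad5 (0.53), Tgif1 (0.03), Tob1 (0.44), Map3k7 (0.23) and Klf10 (0.24). The scaling with knockout replicate 2 also left out called 7903 probe sets and 3 members, with a members' median of -0.11, and turned Smad2 (0.20), Tgfb1 (0.13), 1 Smad4 probe set (0.14), the dimmer Tgfbr2 probe set and Acvr1b (0.00 each), Smad5 (0.26), Tob1 (0.23) and Map3k7 (0.18). Of 408 comparisons of a single gene with an alternative that kept all arrays of its fit, 337 kept direction and side of the threshold, 7 lost a call, 31 gained one and 33 turned sign. The causes of these changes were not tested beyond what each alternative does by construction, and signal near background limits Smad3 and the dim probe sets of Tgfbr1, Tgfbr2, Skil and Ldlrad4.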

Other observations

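The member genes are spread over 5 chromosomes, and 4 of them share chromosome 18 with Mbd2 itself. By gene order in RefSeq GRCm38.p6, Smad4 lies 2 protein-coding genes away from Mbd2, Smad7 17 and Smad2 20, all on one side, while Ldlrad4 lies 11 protein-coding genes away on the other side. The 29 other protein-coding genes from Ldlrad4 to Smad2 included 12 that were tested. With 5 arrays 7 of these were lower and 5 higher in knockout, with 0 called by limma and a median of -0.09, from -0.57 for Acaa2 to 1.56 for Tcf4. With 6 arrays 4 were lower and 8 higher, with 0 called and a median of 0.21, from -0.52 for Dcc to 1.68 for Tcf4. Acaa2, Dcc and Tcf4 were named after their values were seen.

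Tgfbr1 had the largest spread of the members over the 6 arrays (SD 1.13). Among 8189 other genes, those whose values ran most alike over the 6 arrays were Nmi, Rnf44, Pip4p2, Gpbp1l1 and Dennd11, each with a Pearson r of 0.999 or more. All 5 had their lowest value on WT replicate 3, as Tgfbr1 did. Nmi read 8.46, 8.31 and 8.45 in the knockout arrays, against 8.79, 8.83 and 7.25 in the WT arrays, and Pip4p2 read 6.52, 6.41 and 6.55 against 7.10, 7.23 and 4.46. The 6 points share the genotype difference and the low reading on WT replicate 3, so the correlation describes those arrays only.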
